A study of Mus musculus with 12 samples.

Results

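The comparison described here is a difference of differences: the effect of the Huntington's disease knock-in allele on striatal gene expression in mice without cGAS, minus the effect of the same allele in mice with cGAS. It used all 12 of the 12 libraries of the series, 3 mice in each of 4 groups, and the 21482 of 55487 listed genes that had at least 10 counts in at least 3 libraries. Read counts per gene of poly(A) RNA from striatal tissue were measured. WT mice were controls of the C57BL/6J strain. HD mice were zQ175 neo-deleted mice (Q175DN), heterozygous for a knock-in allele that carries an expanded CAG repeat in the mouse Htt gene. The cGAS-KO group were cGAS knockout mice, and mice of the cGAS-KO; HD group, from here on the double mutants, carried both the knockout and the knock-in allele. HD minus WT is the knock-in effect with cGAS and the double mutants minus cGAS-KO is the knock-in effect without cGAS. The 2 effects share no library. Their difference, the second minus the first, is called the interaction, and a value of 1 on its log2 scale means that the effects differ 2-fold. The labels used here give no age, sex, litter or time of collection.

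Huntingtin with an expanded glutamine stretch damages medium spiny neurons, the inhibitory projection neurons of the striatum, most severely. These neurons lose expression of the receptors, channels and signalling enzymes that define them, while developmental genes that are normally kept silent become detectable. cGAS is an enzyme that binds DNA in the cytosol and makes the second messenger cGAMP. cGAMP activates STING, which leads to the transcription of type I interferons and of the many genes that interferons induce. The interaction asks, gene by gene, whether the loss of cGAS changes the response to the knock-in allele.

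Libraries held between 59195327 and 72765623 counts, and mitochondrial genes took 5.30% to 9.03% of them, or 11.5% in cGAS-KO replicate 3. Defining markers of medium spiny neurons were present in every library, with Ppp1r1b between 227 and 1052 and Drd2 between 31.2 and 221 CPM (counts scaled to library size by TMM). Markers of neighbouring tissue varied more, from 45.7 to 1896 CPM for Ttr of choroid plexus and from 34.8 to 620.3 for Slc17a7 of cortical neurons. Xist, the RNA that coats the inactive X chromosome, was abundant in 6 libraries, which were 1 WT, 2 HD, 1 cGAS-KO and 2 double-mutant libraries, and near 0 in the other 6. WT replicate 1 and cGAS-KO replicate 3, both high in Xist, lay farthest from the other libraries of their groups: the chi-square per gene was 50.8 and 81.3 for WT replicate 1 against 9.28 between the remaining WT pair, and 158 and 196 for cGAS-KO replicate 3 against 18.2. For several results that depend on these libraries, values without them are given further on.

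Htt, the gene that carries the knock-in repeat, fell by nearly the same amount in both pairs. It measured 169, 172 and 179 CPM in WT, 144, 131 and 143 in HD, 179, 177 and 155 in cGAS-KO and 126, 137 and 142 in the double mutants. The groups did not overlap in either pair. The log2 effects were -0.32 ± 0.08 with cGAS and -0.33 ± 0.08 without it (SE), and the interaction was -0.016 ± 0.11 with a 95% interval from -0.25 to 0.22. Cgas itself was rare in every group, at 1.56, 1.35 and 1.32 CPM in WT, 1.13, 1.07 and 1.26 in HD, 0.877, 0.572 and 0.882 in cGAS-KO and 1.15, 1.15 and 0.798 in the double mutants. All cGAS-KO values lay below all WT values, but 2 double-mutant libraries lay within the HD range. The labels used here do not say which exons of Cgas are missing in the knockout, so these counts are a weak check of the cGAS labels, and HD minus WT and double mutants minus cGAS-KO are named by those labels. The interaction of Cgas was 0.70 ± 0.33 (-0.015 to 1.42, edgeR adjusted p = 1.00).

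The 2 knock-in effects mostly had the same sign in the genes called in either pair. Over all genes with a count in every group their Pearson's r was 0.559. Of 21482 genes, 1 (0.00466%) passed the test of the interaction (edgeR's quasi-likelihood test, Benjamini-Hochberg adjusted p under 0.05, called the edgeR test from here on). It was Mid1-ps1, a pseudogene that the annotation places on chromosome Y, described further on. At an unadjusted p under 0.05 there were 621 genes (2.89%), with 314 higher and 307 lower interactions. That share was 10.7% without cGAS-KO replicate 3. It was 15.3% without both that library and WT replicate 1, and 98 genes passed after adjustment there. The few calls over all 12 libraries thus do not show that the effects are equal. DESeq2's Wald test called 3 genes and limma-voom called 0. The same fit called 301 genes higher (1.40%) and 569 lower (2.65%) in HD against WT, 870 in all (4.05%), and 840 in the double mutants against cGAS-KO (3.91%), of which 305 were higher (1.42%) and 535 lower (2.49%). Both tests called 501 genes, 57.6% of the first list and 59.6% of the second, and 0 of them in opposite directions. Leaving out 1 library moved these shares from 31.3% (without cGAS-KO replicate 3) to 84.4% (without WT replicate 3) and from 25.4% (without WT replicate 3) to 78.8% (without double-mutant replicate 2).

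Of the genes called in HD against WT, 859 of 870 (98.7%) had the same sign in the other pair of groups, and 768 (88.3%) had the same sign with an unadjusted p under 0.05. The effect without cGAS was a median of 0.859 times the effect with cGAS in these genes (interquartile range 0.651 to 1.05). Read the other way, 98.3% of the genes called in the double mutants had the same sign in HD, and the effect with cGAS was a median of 0.843 times that without it (0.621 to 1.03). The ratio was below 1 in both readings, in each case in the pair that had not chosen the genes. Of the 369 genes called in HD against WT alone, 53 had an unadjusted interaction p under 0.05, as had 64 of the 339 called in the double mutants alone. Over all genes the share was 2.89%. Genes called in 1 pair alone are chosen in part by the difference that the interaction measures. A larger share was thus set in advance, and these counts describe the genes and test nothing.

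To set the effects side by side without choosing genes by either pair alone, the mean of both was tested. It called 2819 genes (13.1%), 1193 higher (5.55%) and 1626 lower (7.57%), and these are called knock-in genes from here on. Over the 2806 of them with a count in every group the slope of the effect without cGAS on that with cGAS was 0.991 ± 0.187 by total least squares, Pearson's r was 0.912 ± 0.0531 and Spearman's rho 0.943, where the errors are standard errors from leaving out each library in turn. A test of the mean treats both effects alike and favours genes whose effects have the same sign. This choice tends to draw the slope towards equal effects and to raise the correlation. Both thus describe these genes and test nothing. Without those libraries that stand apart, WT replicate 1 and cGAS-KO replicate 3, the slope was 0.757 and r 0.772 over the genes called again in that fit, 4665 before those with a group at 0 were left out, so both the libraries and the genes differ. Over all 21467 genes with a count in every group r was 0.559 and rho 0.516. The knock-in effect was larger without cGAS in 1347 knock-in genes (48.00%) and smaller in 1459. The plot of both effects shows the knock-in genes along the line of equal effects, where the choice by the mean tends to place them.

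**Figure D1:**
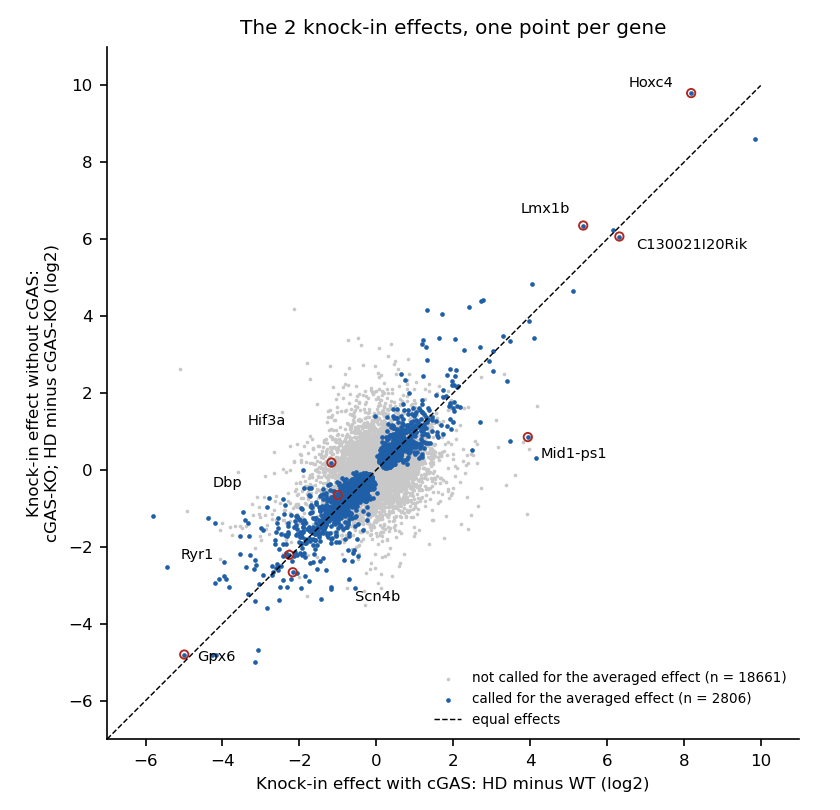
Each point is 1 gene, with the log2 knock-in effect with cGAS (HD minus WT) on the x axis and the log2 effect without cGAS (double mutants minus cGAS-KO) on the y axis. The 2806 knock-in genes (blue) had a slope of 0.991. They were chosen by the mean of both effects, which tends to draw the slope towards equal effects. Mid1-ps1, at 3.94 and 0.85, lies far below the dashed line of equal effects.

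A gene that misses the test of the interaction is not thereby shown to respond alike, so the interval of each interaction was read against a margin. In 13350 genes (62.1%) the 95% interval lay inside a 2-fold difference either way, and in 9211 (42.9%) inside a 1.5-fold difference. Among the knock-in genes 2209 of 2819 (78.4% ± 3.67, error from leaving out each library) lay inside 2-fold and 1500 (53.2%) inside 1.5-fold. With 2 one-sided tests against the 2-fold margin and Benjamini-Hochberg adjustment over all genes, 13712 genes and 2261 knock-in genes (80.2%) passed. The interval reached a median of 0.413 log2 to either side in knock-in genes, against 0.532 over all genes, and 1.42 in the 327 knock-in genes with a mean under 1 CPM. The test of the mean favours genes with small errors, whose intervals are narrow. The shares of knock-in genes inside a margin are thus partly set by how these genes were chosen. The 610 knock-in genes whose interval left the margin had a median of 0.918 CPM against 36.4 CPM for those inside, and in 514 of them the estimate itself was within 2-fold. The interval reached a median of 1.10 log2 to either side in the 610 genes, which include Mid1-ps1 and, at high counts, Scn4b.

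Medium spiny neuron genes fell in both pairs, and their 2 effects had nearly equal medians. Of 48 tested members, 41 fell and 0 rose in the averaged effect (7.57% and 5.55% of all genes). In HD against WT 31 were lower (2.65% of all genes), and in the double mutants against cGAS-KO 30 were lower (2.49%). The median effect was -1.01 with cGAS and -1.06 without it, against 0.012 and 0.0027 over all genes. Among the called members 20 effects were larger and 21 smaller without cGAS. The interval lay inside 2-fold in 42 members and inside 1.5-fold in 15, and 0 members had an unadjusted interaction p under 0.05. In bulk tissue, fewer neurons of a type and less RNA per neuron cannot be told apart.

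Ryr1, the calcium release channel of internal stores, measured 38.7, 39.5 and 45.7 CPM in WT and 10.4, 7.61 and 7.76 in HD, and 48.1, 42.3 and 41.96 in cGAS-KO and 9.09, 9.19 and 10.4 in the double mutants. Every knock-in library lay below every library without the allele. The effects were -2.26 ± 0.12 and -2.21 ± 0.12 (edgeR adjusted p = 2.28e-06 and 2.93e-06), and the interaction was 0.053 ± 0.17 (-0.32 to 0.43). Rasgrp2, an exchange factor for the small GTPase Rap, fell in both pairs (log2 effects -1.07 ± 0.11 with cGAS and -1.22 ± 0.11 without it), with an interaction of -0.15 ± 0.15 (-0.48 to 0.18). Scn4b, a sodium channel subunit enriched in these neurons, had the smallest interaction p of the list. It measured 480.4, 556 and 684 CPM in WT, 132, 136 and 114 in HD, 686, 573 and 445 in cGAS-KO and 68.7, 87.7 and 113 in the double mutants. It fell in both pairs (log2 effects -2.17 ± 0.19 with cGAS and -2.66 ± 0.19 without it), and the interaction of -0.49 ± 0.27 (-1.08 to 0.10) did not pass (edgeR adjusted p = 1.00).

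Both output pathways of the striatum gave the same picture. Drd2, the dopamine receptor of indirect-pathway neurons, measured 112, 136 and 149 CPM in WT and 71.8, 50.2 and 31.2 in HD, and 154, 125 and 221 in cGAS-KO and 76.4, 64.8 and 64.9 in the double mutants. Its groups did not overlap in either pair, and its interaction was 0.10 ± 0.39 (-0.76 to 0.95). Drd1, the dopamine receptor of direct-pathway neurons, measured 105, 129 and 154 CPM in WT and 69.96, 52.7 and 31.9 in HD, and 186, 140.3 and 147 in cGAS-KO and 56.8, 59.8 and 57.9 in the double mutants. It fell in both pairs (log2 effects -1.33 ± 0.23 with cGAS and -1.44 ± 0.23 without it), with an interaction of -0.11 ± 0.33 (-0.83 to 0.62). The adenosine receptor Adora2a had effects of -1.94 ± 0.19 and -2.04 ± 0.19, the opioid peptide precursor Penk -1.55 ± 0.22 and -1.50 ± 0.22, the phosphodiesterase Pde10a -1.49 ± 0.18 and -1.70 ± 0.18, and the phosphatase inhibitor Ppp1r1b -1.29 ± 0.22 and -1.22 ± 0.22. All 8 of these effects passed the edgeR test, and the interaction intervals of these 4 genes lay within -0.77 and 0.76.

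**Figure D2:**
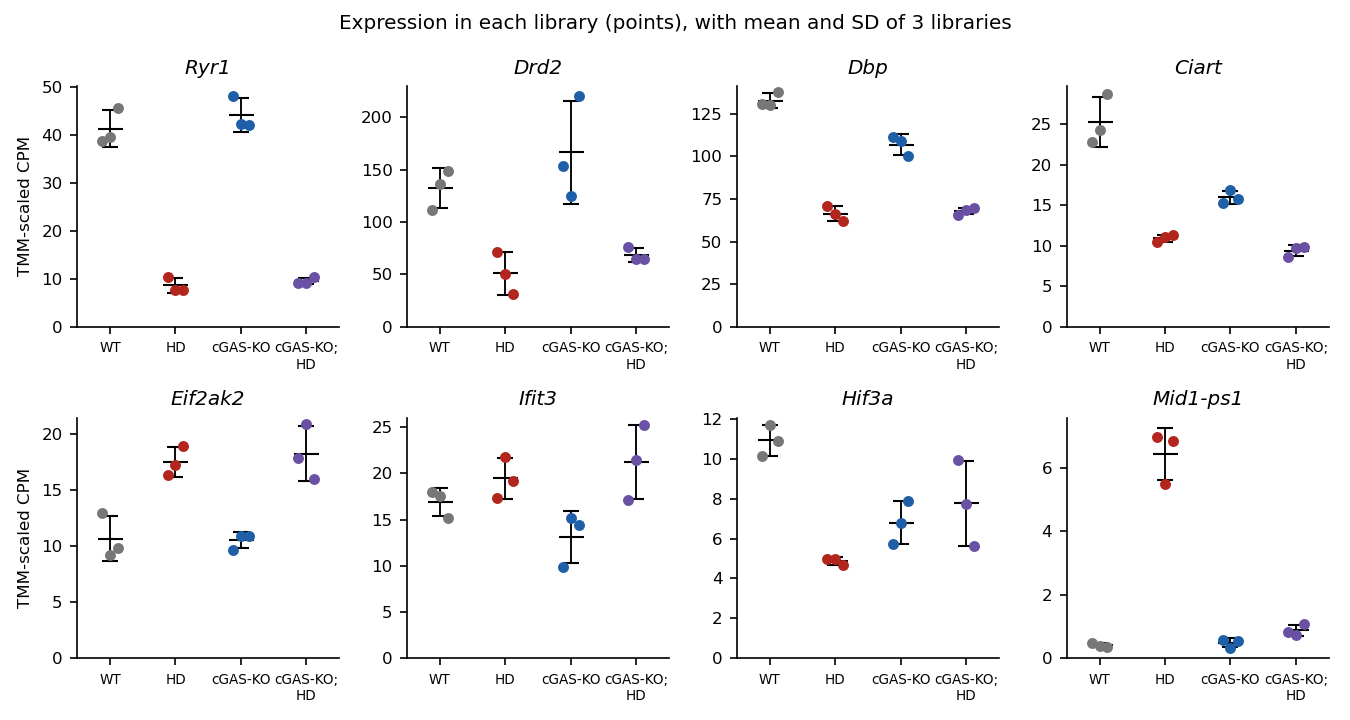
TMM-scaled CPM (y axis, from 0) of 8 genes in each of the 12 libraries by group (x axis), with points for libraries and bars for the mean and SD of 3. Ryr1, Drd2, Dbp and Ciart are lower and Eif2ak2 is higher in both knock-in groups, while Mid1-ps1 reaches 6.96, 5.50 and 6.84 CPM in HD and stays at or below 1.08 in the other 9 libraries.

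Some transcription factors of development, normally silent in adult striatal cells, rose in both pairs, with wide intervals. Of 80 listed genes 42 were tested. Of these, 20 rose and 1 fell in the averaged effect (5.55% and 7.57% of all genes). In each pair 15 were higher (1.40% of all genes with cGAS and 1.42% without it). A gene at 0 in the controls passes the count filter only through the knock-in groups, so these counts do not stand for all listed members. The median effects were 0.76 with cGAS and 0.95 without it over the members with a count in every group, and 1.26 and 1.04 with the 6 members at 0 in a group set at a floor of 3 counts over that group. The order of both medians thus depends on those 6 genes. The median reach of the interval to either side was 1.76 log2, 3 members had an interval inside 2-fold, and 0 had an unadjusted interaction p under 0.05.

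Hoxc4, a homeobox gene of the posterior body axis, measured 0.0149, 0 and 0.0569 CPM in WT, 10.5, 9.31 and 2.49 in HD, 0, 0 and 0.0339 in cGAS-KO and 9.21, 11.5 and 8.46 in the double mutants. HD replicate 3 was the lowest knock-in library, and every knock-in library lay above every library without the allele. Summed over 3 libraries, Hoxc8 had 751 counts in HD and 0 in WT, at least 228-fold higher at the floor of 3 counts over the group. It had 1187 in the double mutants and 0 in cGAS-KO, at least 341-fold higher. No interaction can be estimated for it. Hoxc5 had 1001 against 1 count with cGAS, a ratio of 911 with a 95% counting interval from 163 to 36000.3. Without cGAS it had 1375 against 3 counts, a ratio of 395 (135 to 1918). The 2 intervals, which cover counting error only, overlap. In GENCODE M21 (GRCm38) Hoxc5 spans 102967443 to 103017429 of chromosome 15 and covers Hoxc6 and Hoxc8, so how reads were shared among them depends on the authors' counting.

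Lmx1b, a LIM homeobox factor, and C130021I20Rik, a transcript of the other strand beside it on chromosome 2, were detected well enough for an interval. C130021I20Rik measured 0.178, 0.0685 and 0.0712 CPM in WT and 9.83, 8.33 and 7.54 in HD, and 0.0974, 0.223 and 0.0848 in cGAS-KO and 8.61, 8.83 and 9.97 in the double mutants. It rose by 6.32 ± 0.36 with cGAS and by 6.07 ± 0.35 without it, and the interaction was -0.25 ± 0.50 (-1.34 to 0.83). Lmx1b rose by 5.38 ± 0.44 and 6.36 ± 0.52 (interaction 0.97 ± 0.68, -0.51 to 2.46). Both intervals include 0 and both leave the 2-fold margin.

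Of the 5 genes with the largest losses in the averaged effect, 4 had an interaction interval that included 0. Gpx6, a glutathione peroxidase, measured 5.41, 4.04 and 5.28 CPM in WT and 0.308, 0.146 and 0.0132 in HD, and 3.57, 3.51 and 5.07 in cGAS-KO and 0.146, 0.189 and 0.0997 in the double mutants, with effects of -4.99 ± 0.51 and -4.80 ± 0.52. Slc4a11, a membrane ion transporter, fell in both pairs (-2.94 ± 0.18 and -2.73 ± 0.18), and its interaction interval (-0.36 to 0.77) lay inside 2-fold. Arhgef39 fell in both pairs (log2 effects -2.52 ± 0.24 with cGAS and -3.38 ± 0.26 without it), with an interaction of -0.86 ± 0.35 (-1.63 to -0.10) that did not pass after adjustment (edgeR adjusted p = 1.00). Its HD libraries measured 0.434, 0.541 and 0.331 CPM and its double mutants 0.262, 0.189 and 0.271. Mas1, a receptor of the angiotensin system, and Abi3bp, an extracellular matrix protein, had wide intervals (-0.84 to 2.98 and -1.70 to 1.67). In both, cGAS-KO replicate 3 stood highest of all libraries, at 21.2 and 70.6 CPM.

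**Figure D3:**
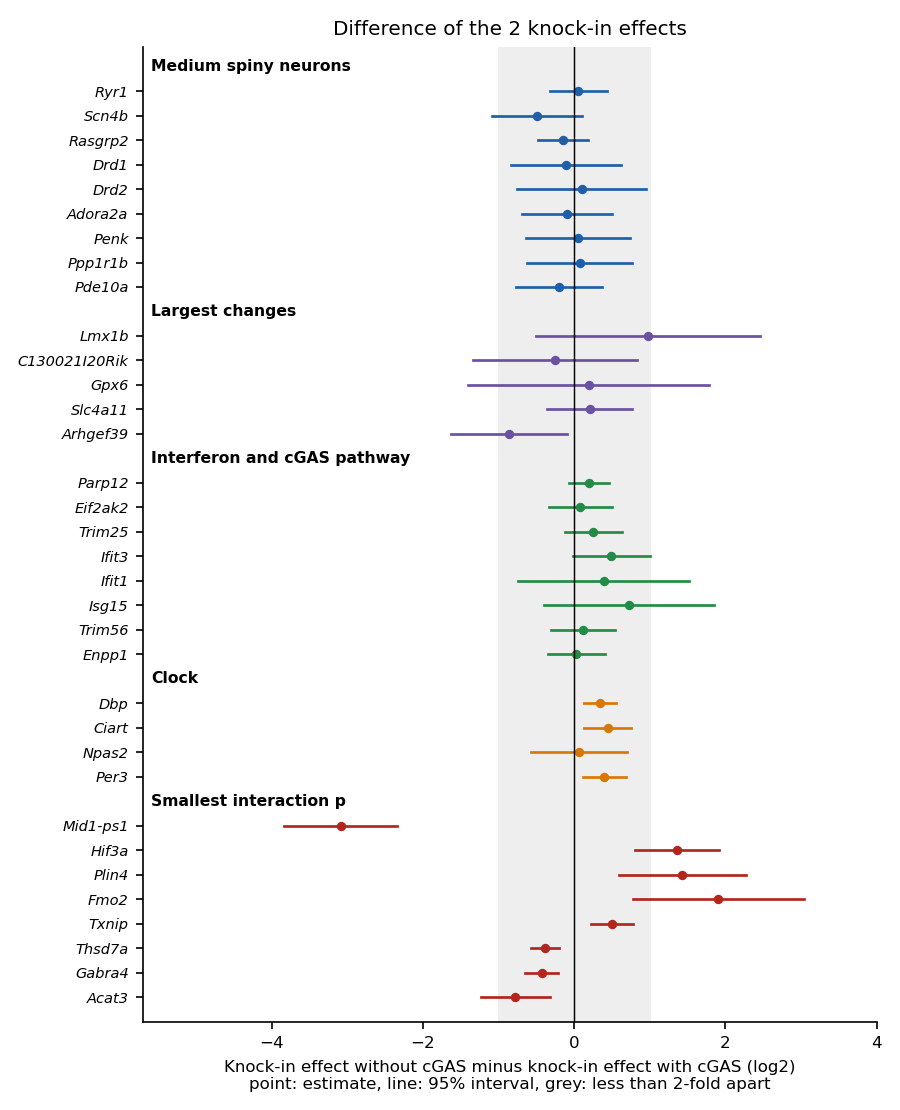
Interaction (knock-in effect without cGAS minus that with cGAS, log2, x axis) of 34 named genes by group (y axis), with points for estimates, lines for 95% intervals and grey for differences under 2-fold. The intervals of the 9 medium spiny neuron genes all include 0, and that of Mid1-ps1, from -3.83 to -2.34, lies wholly outside the grey band.

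Interferon response genes, the transcriptional output of cGAS and STING signalling, were called higher in part, in mice that lacked cGAS and in mice that had it. Of 70 tested members 21 rose and 0 fell in the averaged effect (5.55% and 7.57% of all genes). In HD against WT 5 were higher (1.40% of all genes), and in the double mutants against cGAS-KO 9 were higher (1.42% of all genes). The median effect was 0.35 with cGAS and 0.51 without it, and the median interaction 0.18 against -0.0037 over all genes. Of the 21 called members 17 had the larger effect without cGAS and 4 the smaller. Leaving out cGAS-KO replicate 3 raised the median interaction to 0.52, and leaving out cGAS-KO replicate 1 lowered it to 0.040. Intervals reached a median of 0.78 to either side, 35 members lay inside 2-fold, and 0 had an unadjusted interaction p under 0.05. The summed level of the list was 541 to 634 CPM in WT, 635 to 685 in HD, 501 to 609 in cGAS-KO and 656 to 696 in the double mutants.

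Eif2ak2, a kinase that is switched on by double-stranded RNA, measured 13.01, 9.23 and 9.85 CPM in WT and 16.3, 17.2 and 18.9 in HD, and 9.71, 10.95 and 10.97 in cGAS-KO and 17.9, 20.9 and 15.99 in the double mutants. It rose by 0.71 ± 0.14 with cGAS and 0.79 ± 0.14 without it (edgeR adjusted p = 0.0133 and 0.00681), and its interaction was 0.083 ± 0.19 (-0.34 to 0.50). Parp12, an interferon-induced ADP-ribosyltransferase, rose by 0.42 ± 0.09 and 0.61 ± 0.09, and Trim25, the ubiquitin ligase that activates RIG-I, by 0.48 ± 0.12 and 0.73 ± 0.12. Their intervals (-0.075 to 0.46 and -0.13 to 0.63) include 0 and lie inside 2-fold. Ifit3, an antiviral protein of the interferon response, had the smallest interaction p of the list, and shares near-identical sequence with its neighbour Ifit3b, so its counts are uncertain. It measured 17.97, 17.6 and 15.2 CPM in WT and 17.4, 21.8 and 19.2 in HD, which overlap, and 9.92, 15.1 and 14.4 in cGAS-KO and 17.2, 21.4 and 25.2 in the double mutants, which do not. Its effects were 0.20 ± 0.17 and 0.69 ± 0.17, of which the second passed, and the interaction of 0.49 ± 0.24 (-0.022 to 1.00) did not (edgeR adjusted p = 1.00).

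The interferon-stimulated response element is the promoter sequence to which the transcription factors activated by interferon bind. Its core, GAAANNGAAA on either strand with overlapping matches counted, was sought in the RefSeq promoter windows (GRCm38.p6, 250 bases before to 50 after each start). Only matches wholly within the 250 bases before the start were counted. It was found in 978 of 32851 windows (2.98%). It was in 433 of 13634 tested genes with a window (3.18%) and in 24 of 52 interferon response genes with one (46.2%). Ifit3, Ifit1 and Isg15 are shown as examples of members with more than 1 match (2, 2 and 3). Other members, such as Bst2 and Oas1a, also hold 2. Ifit3 is described above, and Ifit1 and Isg15 were picked with their values in view. Capitals mark the bases of the matches, which read as the reverse complement where the match is on the other strand, and the stretches lie at chr19:34583358-34583431 and chr19:34640770-34640828 on the plus strand and chr4:156200860-156200911 on the minus strand.
Ifit3: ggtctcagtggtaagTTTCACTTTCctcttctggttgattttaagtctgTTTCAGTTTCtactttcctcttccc
Ifit1: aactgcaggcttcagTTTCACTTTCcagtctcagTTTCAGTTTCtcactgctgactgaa
Isg15: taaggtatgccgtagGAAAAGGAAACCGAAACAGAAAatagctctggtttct
Ifit1, a binder of viral RNA, measured 5.87, 5.62 and 4.93 CPM in WT, 5.76, 9.15 and 6.43 in HD, 2.42, 4.47 and 9.34 in cGAS-KO and 8.67, 10.8 and 8.16 in the double mutants. Isg15, a ubiquitin-like modifier, measured 0.876, 1.01 and 1.12 CPM in WT, 1.29, 1.23 and 1.35 in HD, 0.374, 0.397 and 0.899 in cGAS-KO and 0.656, 1.16 and 1.71 in the double mutants. In both, cGAS-KO replicate 3 lay well above the other cGAS-KO libraries, and the interactions of 0.39 ± 0.52 and 0.72 ± 0.52 did not pass. List members with the element had median effects of 0.24 with cGAS and 0.46 without it, and those without the element 0.31 and 0.54. The median interaction was 0.18 and 0.20. Over all 433 tested genes with the element the median interaction was -0.0035, against -0.0063 over the 13634 tested genes with a window. A match of these letters is a description of the window and not a measured binding site.

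Genes of cytosolic DNA sensing itself were called about as often as all genes (13.1%). Of 42 tested members 3 rose and 1 fell in the averaged effect, the median interaction was 0.025, and 34 intervals lay inside 2-fold. The ubiquitin ligase Trim56, which acts on cGAS and STING, measured 13.5, 11.03 and 11.03 CPM in WT and 17.9, 20.04 and 19.4 in HD, and 11.9, 11.5 and 8.00 in cGAS-KO and 17.3, 18.7 and 18.7 in the double mutants. It rose by 0.69 ± 0.14 with cGAS and 0.80 ± 0.14 without it (interaction -0.31 to 0.54). Npc1, a lysosomal cholesterol transporter that also directs STING to lysosomes, rose by 0.32 ± 0.07 and 0.33 ± 0.07, with an interaction interval from -0.20 to 0.24. Enpp1, which degrades extracellular cGAMP, rose by 0.53 ± 0.12 and 0.56 ± 0.12 (interaction -0.35 to 0.40).

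Several circadian clock genes fell with the knock-in allele. Of 24 tested members 12 fell and 0 rose in the averaged effect (7.57% and 5.55% of all genes). Among the members that fell, 9 had the smaller and 3 the larger effect without cGAS, and over the list the median interaction was 0.027. An unadjusted interaction p under 0.05 (2.89% of all genes) was reached by 5 members, Dbp, Ciart, Per3, Per2 and Bhlhe41. All had interactions above 0, and 0 passed after adjustment. Dbp, a transcription factor driven by the clock, measured 131, 129.9 and 138 CPM in WT and 71.01, 66.4 and 61.96 in HD, and 111, 109 and 100.2 in cGAS-KO and 65.9, 68.5 and 69.4 in the double mutants. The HD and double-mutant ranges overlapped, while every cGAS-KO library lay below every WT library. It fell in both pairs (log2 effects -0.998 ± 0.07 with cGAS and -0.65 ± 0.07 without it, edgeR adjusted p = 8.43e-06 and 0.000272), and the interaction was 0.34 ± 0.10 (0.13 to 0.55, edgeR adjusted p = 1.00).

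Ciart, a repressor within the clock, measured 22.9, 24.3 and 28.7 CPM in WT, 10.4, 11.1 and 11.3 in HD, 15.3, 16.9 and 15.8 in cGAS-KO and 8.63, 9.75 and 9.89 in the double mutants. It fell in both pairs (-1.21 ± 0.10 and -0.76 ± 0.10), with an interaction of 0.45 ± 0.14 (0.13 to 0.76). Its cGAS-KO libraries lay below its WT libraries and its double mutants below its HD libraries. The period gene Per3 had effects of -0.65 ± 0.09 and -0.25 ± 0.09 and the repressor Bhlhe41 -0.37 ± 0.07 and -0.14 ± 0.07. Of these 4 effects, the 2 with cGAS passed. Npas2, a partner of the clock activator BMAL1, fell in both pairs (-1.11 ± 0.21 and -1.05 ± 0.21, interaction -0.57 to 0.70), and Tef, a transcription factor related to Dbp, fell likewise (-0.55 ± 0.11 and -0.44 ± 0.11). The E-box CACGTG, to which the clock activators bind, reads the same on both strands. It was found before the start, the part counted here too, in 1978 of 32851 promoter windows (6.02%). It was in 1236 of 13634 tested genes with a window (9.07%) and in 5 of 19 clock genes with one (26.3%). The window of Ciart is shown because it holds 3 before the start, marked in capitals, more than that of any other listed clock gene. The stretch lies at chr3:95882252-95882359 on the minus strand.
Ciart: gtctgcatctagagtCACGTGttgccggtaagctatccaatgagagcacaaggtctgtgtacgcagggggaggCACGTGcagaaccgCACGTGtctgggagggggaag
Time of collection is not stated in the labels, and its part in the levels of clock genes was not tested.

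The 1 gene whose interaction passed was Mid1-ps1. It measured 0.490, 0.394 and 0.370 CPM in WT, 6.96, 5.50 and 6.84 in HD, 0.585, 0.334 and 0.559 in cGAS-KO and 0.845, 0.742 and 1.08 in the double mutants, so that the 3 HD libraries stood far above the other 9. The effect was 3.94 ± 0.24 with cGAS and 0.85 ± 0.25 without it, and the interaction -3.09 ± 0.34 (-3.83 to -2.34, edgeR adjusted p = 0.0167). GENCODE M21 (GRCm38) lists it as an unprocessed pseudogene on the plus strand of chromosome Y, from 90753057 to 90763485. It is a copy of part of Mid1, a ubiquitin ligase gene on chromosome X, and reads of the copies cannot be told apart with certainty. It was high in HD replicates 1 and 2, which had 10 and 2 counts over 4 Y-linked genes, and in HD replicate 3, which had 16778. Mid1 itself measured 13.4, 8.84 and 7.77 CPM in WT, 9.45, 7.04 and 4.44 in HD, 5.78, 6.84 and 11.8 in cGAS-KO and 7.98, 4.60 and 2.65 in the double mutants, and its interaction was -0.16 ± 0.59 (-1.44 to 1.13). The interaction of Mid1-ps1 stayed between -3.29 and -2.94 when each library was left out, with edgeR adjusted p between 0.00524 and 0.117, above 0.05 in 7 of the 12 fits.

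Of the genes that came next by p, none passed after adjustment by the edgeR test. Hif3a, a hypoxia-inducible factor subunit that glucocorticoids also induce, measured 10.2, 11.7 and 10.9 CPM in WT, 4.97, 4.98 and 4.66 in HD, 5.73, 6.77 and 7.88 in cGAS-KO and 9.92, 7.72 and 5.64 in the double mutants. It was lower in HD than in WT without overlap, while both groups without cGAS lay between and overlapped. Its effects were -1.17 ± 0.18 and 0.19 ± 0.18 and the interaction 1.36 ± 0.26 (0.80 to 1.91, edgeR adjusted p = 1.00), which DESeq2's Wald test also called. Fmo2, a flavin monooxygenase, was likewise lower in HD than in WT without overlap, with effects of -1.73 ± 0.37 and 0.17 ± 0.37 (interaction 0.77 to 3.04). Plin4, a lipid droplet protein, and Txnip, an inhibitor of thioredoxin, were higher in the double mutants than in cGAS-KO without overlap, with interactions of 1.43 ± 0.39 and 0.50 ± 0.13.

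On the lower side, Thsd7a, a thrombospondin-domain protein, measured 85.5, 85.4 and 81.1 CPM in WT and 92.6, 90.8 and 93.7 in HD, and 99.4, 92.5 and 102 in cGAS-KO and 83.3, 83.1 and 81.3 in the double mutants. It was higher in HD and lower in the double mutants than in the respective controls, without overlap in either pair (edgeR adjusted p = 0.232 and 0.0365), and the interaction was -0.38 ± 0.08 (-0.57 to -0.20), inside 1.5-fold and called by DESeq2's Wald test. Gabra4, a GABA-A receptor subunit, measured 128, 142 and 146 CPM in WT and 129, 133 and 141 in HD, and 153, 161 and 165 in cGAS-KO and 120.1, 109 and 115 in the double mutants. It fell without cGAS (-0.48 ± 0.07, edgeR adjusted p = 0.00270), and was at -0.050 ± 0.07 with cGAS (interaction -0.43 ± 0.10, -0.65 to -0.21). Acat3, an acetyl-CoA acetyltransferase, and the cell polarity gene Mpp7 had effects of 0.073 ± 0.15 and 0.011 ± 0.12 with cGAS, which did not pass, and fell without it (-0.71 ± 0.15 and -0.61 ± 0.12), with interactions of -0.78 ± 0.21 and -0.62 ± 0.17. Ppp4r4, a regulatory subunit of protein phosphatase 4, fell in both pairs (log2 effects -0.27 ± 0.07 with cGAS and -0.62 ± 0.07 without it; interaction -0.35 ± 0.10, -0.56 to -0.14).

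Nearly every gene of homeostatic microglia had an interaction above 0. In this list 24 of 26 interactions were above 0, against 49.3% of all genes, with a median of 0.25. The median effect was -0.11 with cGAS and 0.19 without it. An unadjusted p under 0.05 was reached by 3 members, all higher, against 2.89% of all genes, and 0 passed after adjustment. Inpp5d, a lipid phosphatase of immune cells, measured 16.9, 18.6 and 18.04 CPM in WT and 15.3, 15.2 and 13.6 in HD, and 16.4, 16.2 and 16.6 in cGAS-KO and 16.9, 19.6 and 17.2 in the double mutants, with an interaction of 0.40 ± 0.13 (0.13 to 0.67). Its HD libraries lay below WT and its double mutants above cGAS-KO, without overlap in either pair. The defining markers Tmem119 and P2ry12, both microglial surface proteins, had interactions of 0.21 ± 0.16 and 0.20 ± 0.20, and the growth factor receptor Csf1r 0.059 ± 0.11. Members of 1 cell type share their cells and are not independent, and fewer cells of the type cannot be told apart from less RNA in each. The standard error of the list median from leaving out each library in turn was 0.152. The median was 0.22 in the low-Xist libraries alone and 0.23 in the high-Xist libraries alone. It was 0.22 when WT replicate 1 and cGAS-KO replicate 3 were left out. These sets are parts of the 12 libraries that gave the median of 0.25 and are no independent repeat.

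Antigen presentation and disease-associated microglia genes lay the same way, with 20 of 26 and 22 of 25 interactions above 0. Psmb9, a subunit of the immunoproteasome, measured 2.17, 1.46 and 1.38 CPM in WT, 1.01, 1.53 and 1.51 in HD, 0.974, 0.684 and 0.763 in cGAS-KO and 1.41, 1.44 and 1.75 in the double mutants. The median interaction of the antigen presentation list was 0.16, but -0.0055 without WT replicate 1, -0.10 in the low-Xist libraries and 0.50 in the high-Xist libraries. In Psmb9 WT replicate 1 was the highest library, and the interaction was 1.24 ± 0.36 (0.47 to 2.00). Clec7a, a receptor of disease-associated microglia, was at 9.94, 3.13 and 2.73 CPM in WT, where replicate 1 stood far above the other libraries of the series, and its interaction of 1.48 ± 0.63 was 0.65 without that library. The median interaction of the disease-associated list was 0.21, and 0.040 with those 2 libraries left out. Inflammatory cytokines had 17 of 19 interactions above 0 and a median of 0.37, with 0 members called in the averaged effect. That median was 0.19 without WT replicate 1 and 0.77 without cGAS-KO replicate 3.

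Nuclear genes of oxidative phosphorylation had interactions below 0. The median was -0.10, 13 of 75 were above 0, and all 75 intervals lay inside 2-fold. An unadjusted p under 0.05 was reached by 10, all lower, against 2.89% of all genes. Ndufs4, a subunit of complex I, measured 40.1, 41.9 and 41.9 CPM in WT and 41.3, 50.1 and 45.6 in HD, and 46.9, 45.2 and 41.1 in cGAS-KO and 36.6, 35.7 and 38.5 in the double mutants (interaction -0.41 ± 0.12, -0.66 to -0.16). Its double mutants lay below every other library, and its HD and WT ranges overlapped. Glutamatergic synapse genes had 25 members lower and 2 higher in the averaged effect (7.57% and 5.55% of all genes). Their medians were -0.31 and -0.33, and 44 of 47 intervals lay inside 2-fold. Oligodendrocyte genes went both ways, 7 higher and 10 lower in the averaged effect (5.55% and 7.57% of all genes). Of their 30 intervals 29 lay inside 2-fold, and the median interaction was 0.030. Cholesterol synthesis genes had 9 of 25 members lower in the averaged effect (7.57% of all genes), 0 in either pair alone, and a median interaction of -0.11.

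Levels of markers of other tissue differed widely between single libraries. The cortical projection neuron list had a median interaction of 0.25 with intervals that reached a median of 1.498 to either side, and its summed level was 776 to 2058 CPM in WT, 791 to 839 in HD, 943 to 2859 in cGAS-KO and 899 to 1134 in the double mutants. Slc17a7, the vesicular glutamate transporter of cortical neurons, measured 54.9, 377 and 445 CPM in WT, 34.8, 80.5 and 85.3 in HD, 174, 86.8 and 620.3 in cGAS-KO and 62.4, 157 and 91.9 in the double mutants. WT replicate 1 was low and cGAS-KO replicate 3 high. Choroid plexus genes ranged from 491 to 3526 CPM in WT alone, with intervals that reached a median of 3.00 to either side, so that for these genes the interaction was not measured to any useful width. The part of tissue composition in the interactions was not tested.

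**Figure D4:**
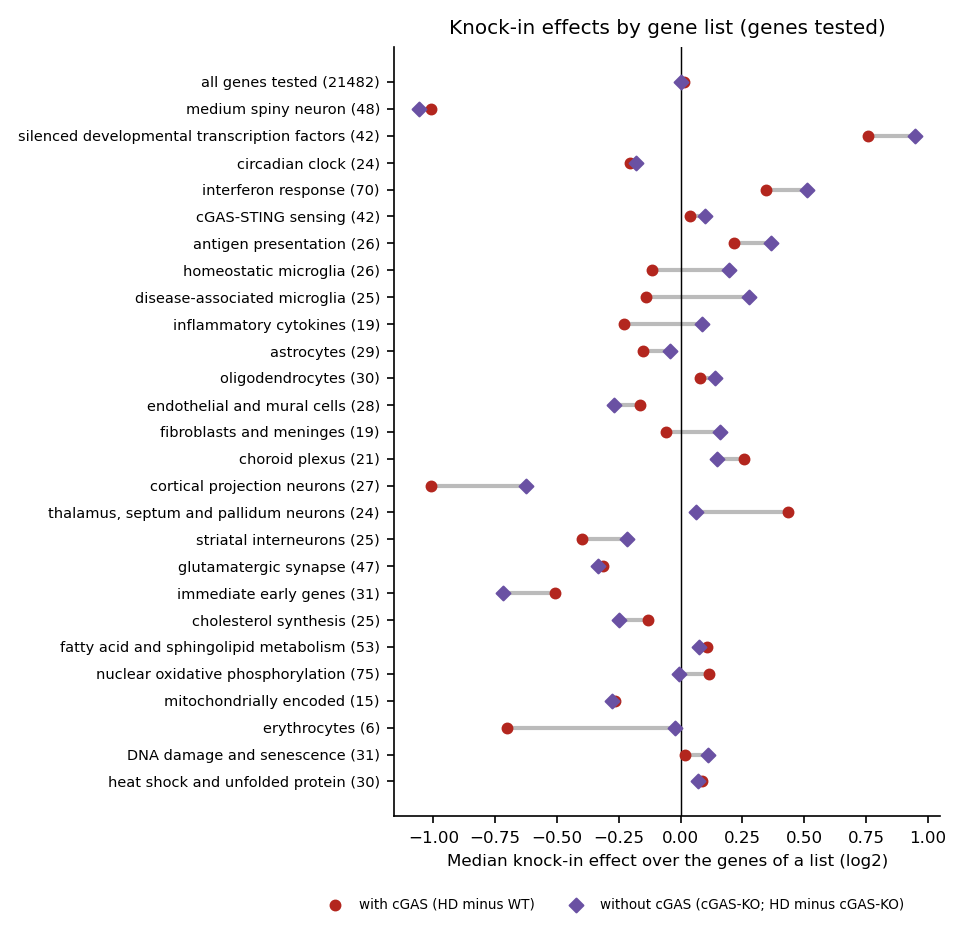
Median log2 knock-in effect (x axis) of the genes of each list (y axis, number of tested genes in parentheses) with cGAS (circles) and without it (diamonds), for members with a count in every group. Medium spiny neuron genes lie at -1.01 and -1.06, homeostatic microglia genes at -0.11 and 0.19.

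The number of called interactions depended on which libraries were used. Low-Xist and high-Xist libraries form 2 sets of 6 that share no library, each with 1 or 2 libraries a group, and the interaction was estimated in each. The fit called 1736 genes in the low-Xist set and 1597 in the high-Xist set, with a lone library assumed to vary like the other groups. The sets opposed each other: of 458 genes called in both, 5 had the same sign and 453 the opposite. Across 19724 genes the interactions had r = -0.349 and rho = -0.411. Over the same genes, the averaged knock-in effects of the sets had r = 0.515 and rho = 0.413.

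The cortical list had a median interaction of 1.19 in the low-Xist set and -1.46 in the high-Xist set, and the medium spiny neuron list 0.48 and -0.43. Thalamus, septum and pallidum neurons lay the other way, at -0.91 and 0.89. The interferon list was at 0.18 and 0.15. With WT replicate 1 and cGAS-KO replicate 3 both left out, the cortical median was 1.04, against 0.25 over all 12 libraries. That of thalamus, septum and pallidum neurons was -0.75 against -0.22, and that of the interferon list 0.29 against 0.18. The choroid plexus median was -2.20 against -0.13. Xist class and the makeup of single libraries cannot be told apart here, since the high-Xist controls are WT replicate 1 and cGAS-KO replicate 3 alone. With Xist class as a term over all 12 libraries 1 gene was called. Without those 2 libraries 98 genes were called, 90 higher and 8 lower. Of these, 12 had an unadjusted p under 0.05 over all 12 libraries, and 9 of 97 had the same sign in the high-Xist set. Cckbr, a cholecystokinin receptor of cortical neurons, had the smallest p among them. It measured 8.36, 24.01 and 27.3 CPM in WT, 6.76, 6.52 and 5.55 in HD, 13.5, 10.5 and 49.5 in cGAS-KO and 10.6, 12.97 and 10.3 in the double mutants.

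**Figure D5:**
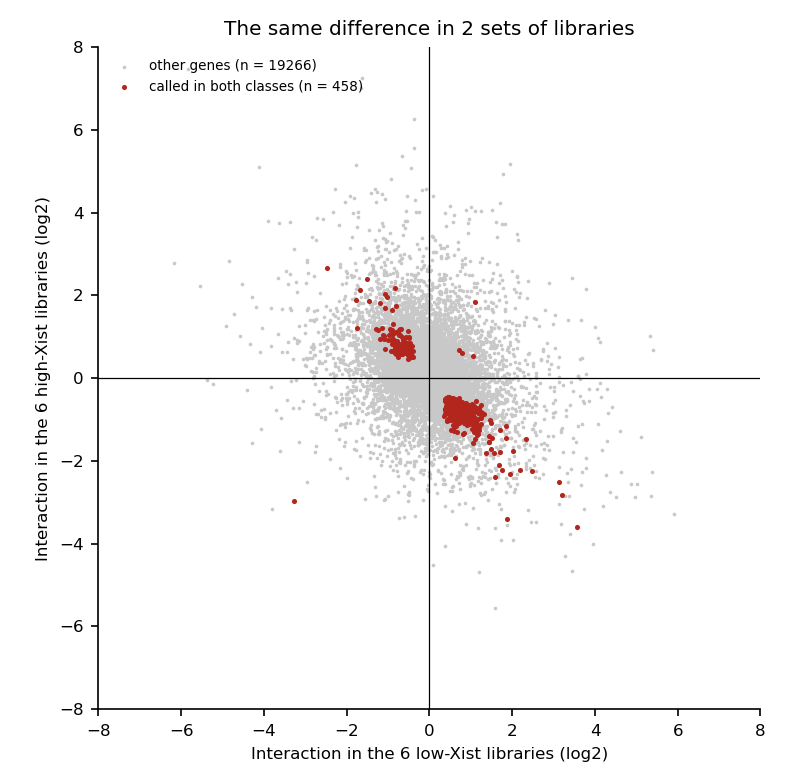
Interaction (log2) of each gene in the 6 low-Xist libraries (x axis) and in the 6 high-Xist libraries (y axis), with the 458 genes called in both sets in red. Of the red points 453 lie in the quadrants of opposite sign and 5 in those of the same sign.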

How the data were processed

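The authors deposited 1 table per library of raw read counts per Ensembl gene, with no header. Per the labels' protocols, striatal tissue of 3 mice a group was kept in TRIzol and poly(A) RNA was made into libraries with a directional kit. The labels used here name no aligner, genome build, annotation or strand setting. The count values were read as deposited (12 libraries, 55487 genes). Symbols and coordinates came from GENCODE M21 (GRCm38), which matched 99.4% of the IDs, and promoter sequences from RefSeq (GRCm38.p6).

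Genes with at least 10 counts in at least 3 libraries were kept, libraries were scaled by TMM, and 1 model with a mean for each of the 4 groups was fitted with edgeR's quasi-likelihood test (glmQLFit and glmQLFTest, edgeR 4.0.16, R 4.3.3). Contrasts were HD minus WT, double mutants minus cGAS-KO, their mean and their difference, and p-values were adjusted by Benjamini-Hochberg over all genes tested. Errors on the log2 scale are standard errors. Intervals are 95% intervals on the sum of the prior and residual degrees of freedom of that fit (median 12.8). CPM values are scaled by TMM. Genes with 0 counts in a group got no log2 effect. Counting floors and intervals cover counting error only.

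Genes named were Htt and Cgas, the called interaction, the smallest interaction p-values each way, the largest averaged effects each way, and by p-value up to 3 members and 1 member of each gene list. Mid1, Ifit1, Isg15, Drd1, Drd2, Adora2a, Penk, Ppp1r1b, Pde10a, Per3, Bhlhe41, Tef, Tmem119, P2ry12, Csf1r, Sgk1, Fkbp5, Zbtb16, Slc17a7, Cckbr and others read from the lists were picked with their values in view. The comparison, its lists and the alternatives were chosen with earlier results of these data known, and the E-box search and the glucocorticoid list after the files were read. Alternatives were DESeq2 1.42.0 (Wald test and size factors), limma-voom (limma 3.58.1), other count filters, a replicate block, Xist class as a term, each Xist class alone, and leaving out libraries. Scripts were tested on simulated data. No library was left out of the comparison as reported.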

Additional observations from a re-analysis of the deposited data

Results flagged for a closer look

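The interaction of Mid1-ps1 was -3.09 ± 0.34 (log2, SE, n = 3 a group), which places it here because the difference between both knock-in effects itself passed edgeR's quasi-likelihood test (Benjamini-Hochberg adjusted p = 0.0167). All 3 HD libraries, between 5.50 and 6.96 CPM, lay above the 9 others, of which the highest was 1.08 CPM. The estimate was -3.28 in the low-Xist libraries alone and -2.96 in the high-Xist libraries alone. These sets share no library, but together they are the 12 libraries that chose the gene, and each holds groups with 1 library. They are thus no independent repeat. It was -3.06 by limma-voom, where the adjusted p was 0.139, and -3.09 by DESeq2's Wald test (adjusted p = 2.37e-12). The near-copy Mid1 was not called, and how the authors' counting shared reads between the copies was not tested.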

How the results depend on the processing

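The limits are the number of mice, 3 a group, and the unequal libraries. The intervals of 610 knock-in genes left 2-fold. Of 1845 interaction values of 81 named genes over all alternatives, 40 gained a call, 8 lost one, and 116, in 35 genes, turned sign, all in genes whose interval over all 12 libraries includes 0. Leaving out 1 library turned the sign in 24 genes, among them Gpx6 (-0.36 to 1.20), Drd2 (-0.15 to 0.43), Hoxc4 (-0.067 to 2.12) and C130021I20Rik (-0.86 to 0.33). The interaction was called for 3 genes by DESeq2's Wald test (Mid1-ps1, Hif3a and Thsd7a), 0 by limma-voom, 1736 in the low-Xist libraries alone, 1597 in the high-Xist libraries alone and 98 with WT replicate 1 and cGAS-KO replicate 3 left out. HD against WT gave 1798, 3476, 205 and 3660 called genes by DESeq2's Wald test, in the low-Xist libraries, in the high-Xist libraries and without both libraries. The double mutants against cGAS-KO gave 1666, 3017, 4909 and 1849 in the same order, and the averaged effect 4665 without both libraries. In the low-Xist, high-Xist and reduced sets, the slope was 0.709, 2.26 and 0.757 and Pearson's r 0.728, 0.645 and 0.772. Knock-in genes inside 2-fold were 85.7% with a filter of 1 CPM, 71.0% in the low-Xist and 59.1% in the high-Xist libraries, and 53.2% lay inside 1.5-fold.

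Leaving out each library in turn, called interactions ranged from 0 to 1, HD against WT from 243 (without WT replicate 3) to 1902 (without cGAS-KO replicate 3), the double mutants against cGAS-KO from 339 to 1151 and the averaged effect from 1795 to 3618. The slope ranged from 0.775 (without WT replicate 1) to 1.08, r from 0.852 (without cGAS-KO replicate 3) to 0.930 and the share inside 2-fold from 74.1% to 79.3%. Without cGAS-KO replicate 3 the interaction reached an unadjusted p under 0.05 in 2291 genes, and without both libraries in 3235. The cause was not tested.

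With the replicate number as a replicate block, 1 interaction, 506 genes in HD against WT, 596 in the double mutants against cGAS-KO and 2310 averaged effects were called. The numbers do not pair the mice: 2 of 18 same-numbered pairs had a correlation of deviations over 0.1 (-0.23 to 0.20), and 1 of 12 libraries correlated best with its own number.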

Other observations

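Genes that glucocorticoids induce had interactions mostly above 0. The list of 24 genes was written after Hif3a, Plin4, Txnip and Fmo2 had been seen among the smallest p-values, so its counts describe and test nothing. Its median effect was -0.41 with cGAS and 0.062 without it, and 19 of 24 interactions were above 0. An unadjusted edgeR p under 0.05 was reached by 7, all above 0. They include Hif3a, Plin4, Txnip and Fmo2, the genes that prompted the list. The share of 2.89% over all genes is thus no fair comparison for this count. The others were Zbtb16, Mt2 and Lcn2, and the highest group mean of Lcn2 was only 0.80 CPM. Zbtb16, a zinc finger transcription factor, measured 14.1, 19.9 and 23.9 CPM in WT, 9.62, 10.2 and 11.3 in HD, 10.6, 13.5 and 18.5 in cGAS-KO and 12.7, 14.3 and 16.3 in the double mutants, and fell with cGAS alone to a called degree (-0.90 ± 0.21 against 0.027 ± 0.21, interaction 0.93 ± 0.29). Sgk1, a serine kinase, fell in both pairs (log2 effects -0.85 ± 0.12 with cGAS and -0.52 ± 0.12 without it). Its cGAS-KO libraries (75.01, 66.8 and 63.98 CPM) lay below its WT libraries (106, 83.8 and 93.1). Fkbp5, a co-chaperone of the glucocorticoid receptor, had an interaction of -0.092 ± 0.15. The labels do not state time of day or handling at collection.

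Among striatal interneuron genes, Lhx6 had the smallest interaction p, which did not pass. Lhx6, which specifies interneurons from the medial ganglionic eminence, measured 33.4, 31.9 and 29.6 CPM in WT, 26.1, 22.2 and 19.1 in HD, 31.7, 31.5 and 33.1 in cGAS-KO and 38.1, 31.5 and 29.8 in the double mutants. It fell with cGAS (-0.50 ± 0.12) and was at 0.045 ± 0.12 without it, and the interaction was 0.54 ± 0.17 (0.18 to 0.90, edgeR adjusted p = 1.00). The list had a median interaction of 0.029 over 25 genes. Cdkn2a, a cell cycle inhibitor used as a marker of senescence, measured 0.193, 0.291 and 0.185 CPM in WT, 0.490, 0.468 and 0.172 in HD, 0.179, 0.159 and 0.119 in cGAS-KO and 0.714, 0.742 and 0.855 in the double mutants. It rose without cGAS by 2.34 ± 0.42 (edgeR adjusted p = 0.00850), and its effect with cGAS was 0.76 ± 0.41 and did not pass. The interaction was 1.58 ± 0.59 (0.30 to 2.85).

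Cldn5, the tight junction protein of brain endothelium, measured 8.06, 8.29 and 7.84 CPM in WT, 5.83, 9.02 and 10.7 in HD, 7.16, 8.43 and 4.87 in cGAS-KO and 3.89, 4.66 and 3.60 in the double mutants (interaction -0.83 ± 0.32, -1.51 to -0.14). The endothelial and mural list as a whole had a median interaction of -0.035. Hbb-bs, a haemoglobin chain of red cells, had an interaction of 0.82 ± 0.34 and the erythrocyte list of 6 genes a median of 0.62. Median interactions over all 12 libraries were 0.095 for astrocytes, 0.0035 for fatty acid and sphingolipid metabolism, 0.039 for DNA damage and senescence and -0.048 for heat shock genes. The median of mitochondrially encoded genes was 0.0052 over all libraries, 0.96 in the low-Xist and -0.83 in the high-Xist libraries, and 0.50 without cGAS-KO replicate 3. That of immediate early genes was -0.078, 0.43 and -1.07 in the same order, and 0.14 without WT replicate 1. The medians were 0.37 for fibroblasts and meninges and -0.13 for choroid plexus. With WT replicate 1 and cGAS-KO replicate 3 both left out, they were 0.41 and -2.20.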
